A study of Mus musculus with 16 samples.

Results

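The 56 protein-coding genes whose symbol begins with Krtap, out of 48440 genes in the count table of mouse ear skin, were followed over 16 libraries. They encode the keratin-associated proteins of hair. In B6 mice on a high-fat diet (HFD), a few single ears carried most of the Krtap RNA, and 1 member, Krtap3-2, was present at appreciable levels in all 4 groups. Krtap3-2 was lower with PMA in mice on a normal diet (ND), a comparison that cannot be told apart from the series of library IDs. That call was lost in 9 of 26 alternative settings. PMA, a phorbol ester, switches on protein kinase C and irritates skin. The groups, with 4 libraries each, were ear skin of HFD mice with PMA (HFD PMA), ND mice with PMA (ND PMA), HFD mice labelled non-treated (HFD cont) and ND mice labelled non-treated (ND cont). The protocol gives 8 weeks of diet, 200 ng of PMA per ear and collection 24 hours later. The sources used here do not say if non-treated ears got the solvent. The design gives 4 mice per group, and no age or sex. The ears were sequenced whole, so fewer cells of a type and less RNA per cell cannot be told apart.

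A hair shaft is built in the cortex and cuticle of the growing follicle, where hair keratins form intermediate filaments and keratin-associated proteins form the matrix that cross-links them. High-sulfur and ultra-high-sulfur members are rich in cysteine and join filaments by disulfide bonds, whereas glycine-tyrosine-rich members are small proteins of the cortex. Follicles make these proteins only during the growth phase (anagen), and their genes are short, mostly without introns, and lie in clusters.

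The members carry 27 subfamily numbers and all 56 were found by gene ID in GENCODE M21 on GRCm38, 50 of them with 1 exon. Chromosome 16 holds 25, chromosome 11 holds 23, chromosome 7 holds 5, chromosome 10 holds 2 and chromosome 1 holds 1. By subfamily number, 15 were placed among the high-sulfur, 19 among the ultra-high-sulfur and 16 among the glycine-tyrosine proteins, and 6 (subfamilies 16, 28, 29 and 31) were not placed. No amino acid sequence was examined, so the class of single subfamilies, such as 10 and 12 (here ultra-high-sulfur), was not checked. Krtap13 and Krtap20-2 had 0 counts in every library. Paralogs can share reads: 14 members share at least 1 stretch as long as a read with another gene, and 10 share over 10% of such stretches, Krtap4-13 the most with 51.0%. Krtap3-2 and Krtap3-3 share 20.8% and 31.2% of their own stretches with each other. Krtap24-1 overlaps an exon of a gene on the other strand, and Krtap15 an exon of a gene on its own strand. The libraries carry no strand, so reads from either overlap cannot be assigned to a single gene.

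The Krtap3 genes are shown by sequence because they are neighbours of 1 cluster of which only Krtap3-2 was above 1 CPM in every library. Krtap3-3, Krtap3-2 and Krtap3-1 lie on the minus strand of chromosome 11 and each has 1 exon, with Krtap3-2 at chr11:99555823-99556853. The 250 bases before each start, from RefSeq on GRCm38.p6, are printed 5′ to 3′ on the gene's strand, with TATAAA and CCAAT on either strand (the reverse of CCAAT is ATTGG) in capitals.
Krtap3-2, chr11:99556854-99557103, minus strand: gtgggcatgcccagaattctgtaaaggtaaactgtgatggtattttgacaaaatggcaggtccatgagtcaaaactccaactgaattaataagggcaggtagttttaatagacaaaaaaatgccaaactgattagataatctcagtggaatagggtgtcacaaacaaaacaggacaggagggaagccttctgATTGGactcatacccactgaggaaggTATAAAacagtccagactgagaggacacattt
Krtap3-1, chr11:99566631-99566880, minus strand: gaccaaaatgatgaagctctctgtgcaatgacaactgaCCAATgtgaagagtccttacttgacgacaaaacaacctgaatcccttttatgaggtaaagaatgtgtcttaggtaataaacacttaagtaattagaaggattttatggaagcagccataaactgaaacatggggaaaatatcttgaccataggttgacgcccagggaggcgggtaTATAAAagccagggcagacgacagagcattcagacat
Krtap3-3, chr11:99550864-99551113, minus strand: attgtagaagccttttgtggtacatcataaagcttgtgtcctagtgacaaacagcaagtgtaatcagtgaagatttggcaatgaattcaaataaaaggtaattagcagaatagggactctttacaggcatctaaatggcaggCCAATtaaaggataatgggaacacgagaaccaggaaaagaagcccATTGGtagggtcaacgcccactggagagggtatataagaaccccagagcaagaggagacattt
TATAAA began 32 bases before the start of Krtap3-2 and 37 bases before that of Krtap3-1, and these letters were not in the Krtap3-3 window. The windows of Krtap3-2 and Krtap3-1 were 57.0% identical with gaps counted, those of Krtap3-2 and Krtap3-3 58.7%, and those of Krtap3-1 and Krtap3-3 55.6%. Over the 51 members with an entry, TATAAA or its reverse TTTATA occurred in 41 windows (80.4%), against 12.4% of all 32851 windows of the same length. CCAAT or ATTGG occurred in 17 of the 51 (33.3%), against 33.8% of all windows. CTTTGA or its reverse TCAAAG, letters of the kind that Lef1 and Tcf proteins bind, occurred in 12 (23.5%), against 13.8% of all. A match of letters describes the window and no binding was measured.

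The libraries held 7739487 to 15571389 counts. Levels are in CPM, counts scaled by library size, and 1 CPM stood for 7.99 to 15.6 counts, so values below it come from few counts. A gene at 0 counts (up to 3 counts allowed) could have up to 0.193 to 0.376 CPM, depending on the library. Intervals below are exact 95% intervals, which cover counting error only. Library IDs begin with RHS in 5 libraries, namely all ND cont libraries and HFD cont replicate 1, and with RHP in the other 11, so the ND PMA against ND cont comparison cannot be told apart from this ID series. The HFD cont against ND cont comparison is nearly confounded with it too, because HFD cont replicate 1 is the only RHS library outside ND cont. Markers of epidermis, fibroblasts, cartilage, muscle and sebaceous gland were present in every library.

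Krtap RNA was concentrated in a few HFD libraries. The 56 genes summed to 1160, 31.7, 21.2 and 21.8 CPM in HFD PMA replicates 1 to 4, and to 7.45, 34.4, 3.53 and 6.36 CPM in ND PMA replicates 1 to 4. They summed to 1008, 389, 23.6 and 108 CPM in HFD cont replicates 1 to 4, and to 16.6, 21.6, 17.3 and 25.3 CPM in ND cont replicates 1 to 4. The HFD libraries numbered 1 were thus the highest of all, HFD cont replicates 2 and 4 came next, and the sums of HFD PMA overlapped those of ND PMA while those of HFD cont overlapped those of ND cont. Mean sums were 309 ± 568 CPM in HFD PMA, 12.9 ± 14.4 CPM in ND PMA, 382 ± 446 CPM in HFD cont and 20.2 ± 4.06 CPM in ND cont (SD, n = 4 each). One library gave 94.0% of the HFD PMA sum and 65.9% of the HFD cont sum, so these means describe single ears. In counts, Krtap genes took 0.115% of all counts in HFD PMA replicate 1 (interval 0.113% to 0.117%) and 0.000344% in ND PMA replicate 3.

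The 15 listed hair shaft keratins, the filament partners of these proteins, were high in the same libraries. They summed to 1197, 70.8, 55.1 and 39.6 CPM in HFD PMA and to 5.71, 88.3, 10.3 and 12.6 CPM in ND PMA. The sums were 1051, 506, 43.7 and 127 CPM in HFD cont and 10.2, 13.5, 20.8 and 26.9 CPM in ND cont. These keratins include Krt84, which did not follow the Krtap libraries (values below). Krt84 made up most of the sum in HFD PMA replicate 4 and in ND PMA replicates 1, 3 and 4. The 11 listed inner root sheath and companion layer genes, which mark the sleeve around the growing shaft, summed to 2932, 150, 69.5 and 186 CPM in HFD PMA and to 23.7, 142, 30.9 and 37.9 CPM in ND PMA. They summed to 2218, 1712, 70.5 and 634 CPM in HFD cont and to 20.5, 31, 25.9 and 68.3 CPM in ND cont.

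**Figure D1:**
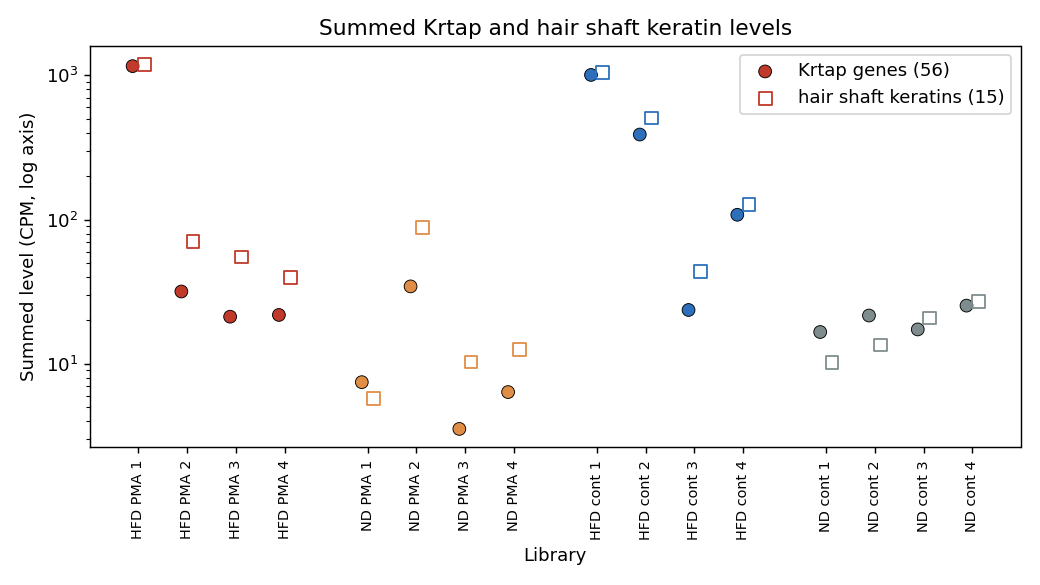
Summed level in CPM (log axis) of the 56 Krtap genes (filled circles) and 15 hair shaft keratins (open squares) in each library, coloured by group. HFD PMA 1 and HFD cont 1 stand near 1000 CPM for both sums, and ND PMA 2 is the highest ND PMA library for both.

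The pattern over libraries ran through nearly the whole family. Of the 54 members with counts, 46 had HFD PMA replicate 1 and HFD cont replicate 1 as their 2 highest libraries, and the highest library was HFD PMA replicate 1 for 30, HFD cont replicate 1 for 19 and HFD cont replicate 2 for 5. Members without a count numbered 2, 13, 26 and 29 in HFD PMA, and 50, 19, 46 and 47 in ND PMA. They numbered 2, 2, 25 and 11 in HFD cont, and 46, 31, 35 and 29 in ND cont. Over whole groups, 18 members had 0 counts in ND PMA and 15 in ND cont, and a further 11 and 19 had only 1 to 3 counts there.

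**Figure D2:**
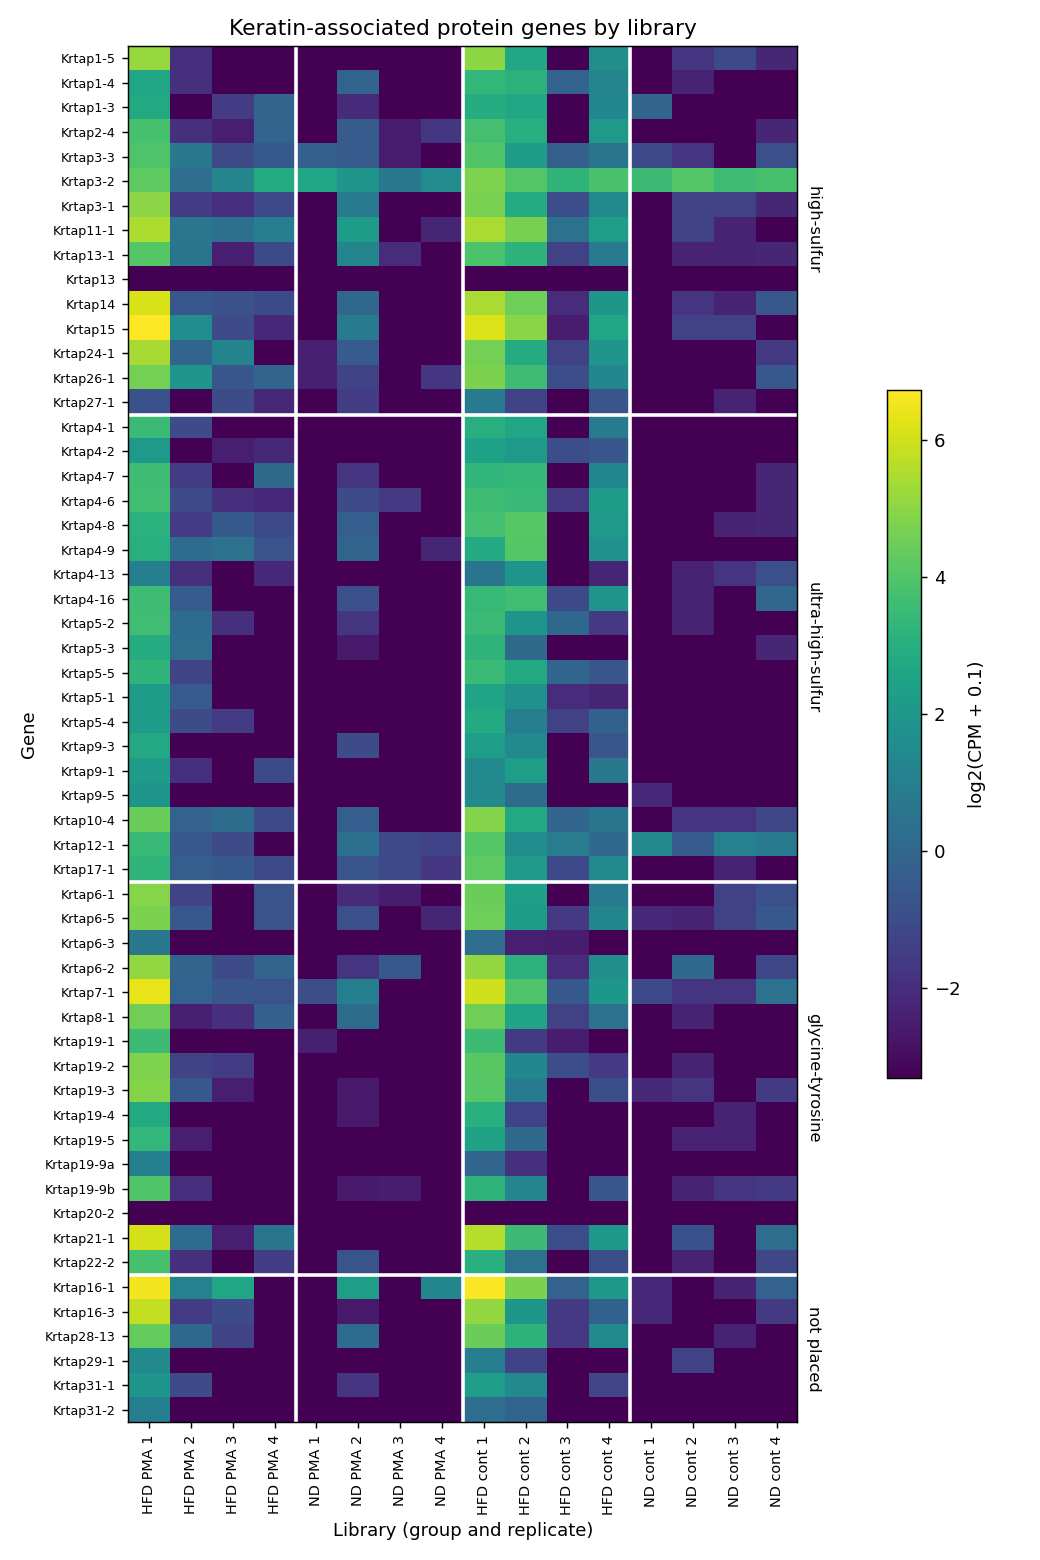
Level of each of the 56 members, as log2(CPM + 0.1), in each of the 16 libraries, with genes ordered by protein class and subfamily number. The HFD libraries numbered 1 are bright for nearly every gene, Krtap3-2 is the one row above 1 CPM in all 16 libraries, and Krtap13 and Krtap20-2 are at 0 throughout.

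Among the high-sulfur members the highest per length were Krtap15, Krtap14, Krtap3-2, Krtap11-1 and Krtap3-1, with means over the 16 libraries of 13.2, 10.1, 9.99, 7.98 and 7.34 CPM per kb. Krtap15 had 106, 2.94, 0.391 and 0.125 CPM in HFD PMA, against 0, 1.61, 0 and 0 CPM in ND PMA. It had 73.0, 30.6, 0.0725 and 5.85 CPM in HFD cont, against 0, 0.283, 0.288 and 0 CPM in ND cont. The HFD and ND groups overlapped in both treatments, through HFD PMA replicates 3 and 4 and through HFD cont replicate 3. Krtap11-1 had 45, 1.43, 1.17 and 1.88 CPM in HFD PMA and 0, 4.5, 0 and 0.103 CPM in ND PMA. It had 43.2, 25, 1.23 and 4.88 CPM in HFD cont, all above the 0, 0.283, 0.096 and 0 CPM in ND cont, while the PMA groups overlapped through ND PMA replicate 2. Krtap26-1 had 24.4, 3.81, 0.547 and 0.876 CPM in HFD PMA, all above the 0.0828, 0.321, 0 and 0.205 CPM in ND PMA. It had 26.6, 12.1, 0.435 and 2.49 CPM in HFD cont and 0, 0, 0 and 0.56 CPM in ND cont, where HFD cont replicate 3 lay below ND cont replicate 4. The lowest subfamily of this class with counts was Krtap27, whose single member reached 1.60 CPM in HFD cont replicate 1 and 0.48 CPM in HFD PMA replicate 1.

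Among the ultra-high-sulfur members, the 8 Krtap4 genes summed to between 2.11 and 70.5 CPM in HFD PMA and between 0 and 2.57 CPM in ND PMA. They summed to between 1.02 and 81.4 CPM in HFD cont and between 0 and 1.68 CPM in ND cont. Krtap4-9 had 7.98, 1.03, 1.25 and 0.501 CPM in HFD PMA and 0, 0.835, 0 and 0.103 CPM in ND PMA. It had 6.91, 17, 0 and 3.25 CPM in HFD cont and 0 CPM in all 4 ND cont libraries, so that HFD cont replicate 3 and ND cont were alike at 0. Krtap17-1, the only member of its subfamily, had 9.42, 0.714, 0.625 and 0.376 CPM in HFD PMA and 0, 0.514, 0.361 and 0.205 CPM in ND PMA. It had 18.9, 4.09, 0.363 and 2.71 CPM in HFD cont, all above the 0, 0, 0.096 and 0 CPM in ND cont. The 5 Krtap5 genes summed to at most 38.2 CPM in HFD PMA, 0.257 CPM in ND PMA, 45.1 CPM in HFD cont and 0.112 CPM in ND cont.

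Among the glycine-tyrosine members, Krtap7-1 was the highest of all 56 per length, with a mean of 17.5 CPM per kb over the 16 libraries. It had 83.2, 0.794, 0.547 and 0.501 CPM in HFD PMA and 0.414, 1.93, 0 and 0 CPM in ND PMA. It had 64.6, 15.6, 0.58 and 3.90 CPM in HFD cont and 0.37, 0.189, 0.192 and 1.23 CPM in ND cont, and the groups overlapped within each treatment. Krtap21-1 had 67.2, 1.03, 0.0782 and 1.38 CPM in HFD PMA and 0 counts in all ND PMA libraries. It had 48.3, 11.9, 0.435 and 4.01 CPM in HFD cont and 0, 0.472, 0 and 1.12 CPM in ND cont. The 7 Krtap19 genes summed to 103 CPM in HFD PMA replicate 1 and 70.5 CPM in HFD cont replicate 1, against at most 0.193 CPM in ND PMA and 0.472 CPM in ND cont, and none of them was frequent enough to be tested. Of the genes not placed in a class, the 2 of subfamily 16 reached 149 CPM in HFD PMA and 137 CPM in HFD cont, against 4.95 CPM in ND PMA and 1.01 CPM in ND cont at most.

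The make-up of the Krtap counts differed between single libraries. Shares are given for the 4 libraries with the most Krtap counts (12072 in HFD PMA replicate 1, and 8177, 5042 and 997 in HFD cont replicates 1, 2 and 4), each as a library of its own and without a test of conditions. Glycine-tyrosine members took 33.0% of Krtap counts in HFD PMA replicate 1 (interval 32.1% to 33.8%), and in HFD cont 29.2% in replicate 1 (28.2% to 30.2%), 15.6% in replicate 2 (14.6% to 16.6%) and 16.6% in replicate 4 (14.4% to 19.1%). Ultra-high-sulfur members took 14.3% in HFD PMA replicate 1 (13.7% to 15%), and in HFD cont 18.5% in replicate 1 (17.7% to 19.4%), 30.9% in replicate 2 (29.7% to 32.2%) and 26.9% in replicate 4 (24.2% to 29.7%). The libraries numbered 1 thus held more of the glycine-tyrosine class and HFD cont replicates 2 and 4 more of the ultra-high-sulfur class, by more than counting error.

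**Figure D3:**
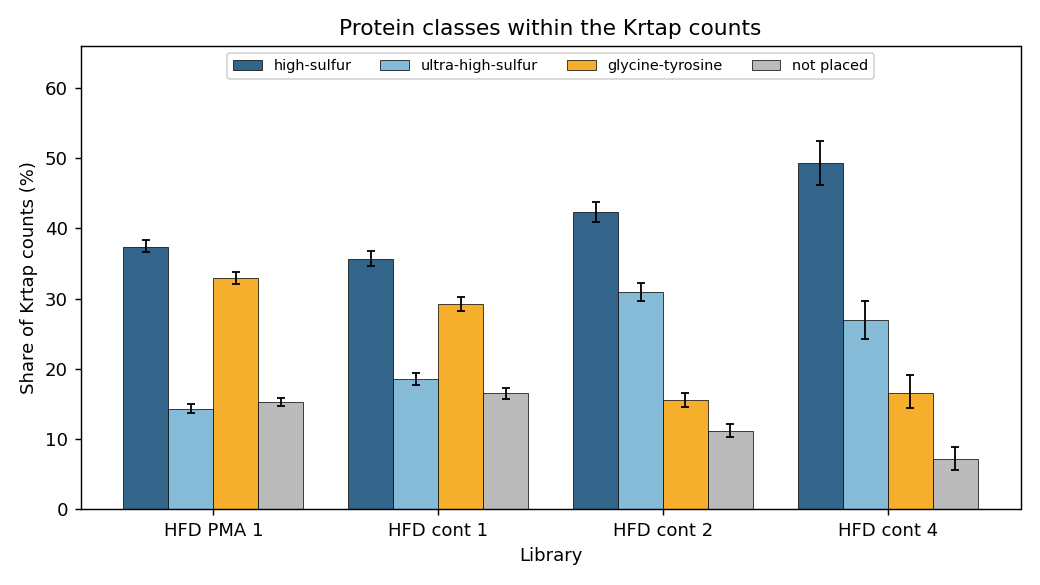
Share of Krtap counts (%) taken by each protein class in the 4 libraries with the most Krtap counts; bars are shares and error bars exact 95% intervals of the counts. Glycine-tyrosine members take 33.0% and 29.2% in the libraries numbered 1, and 15.6% and 16.6% in HFD cont 2 and 4.

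Several subfamilies differed in their shares, of which the glycine-tyrosine subfamilies 19, 6, 7 and 21, the ultra-high-sulfur Krtap4 and the unplaced subfamily 16 are given. Krtap19 took 8.90% of Krtap counts in HFD PMA replicate 1 (8.39% to 9.42%), and 7%, 2.08% and 1.10% in HFD cont replicates 1, 2 and 4. Subfamilies 6, 7 and 21 took 7.91%, 7.17% and 5.79% in HFD PMA replicate 1, against 4.68%, 4.01% and 3.05% in HFD cont replicate 2. Krtap4 took 6.08% in HFD PMA replicate 1 (5.66% to 6.52%), and 6.62%, 20.9% and 18.8% in HFD cont replicates 1, 2 and 4. Subfamily 16 took 12.8% in HFD PMA replicate 1 and 13.6%, 7.93% and 4.41% in those HFD cont libraries. By position, the 25 genes of chromosome 16 took 64.1% in HFD PMA replicate 1 (63.2% to 64.9%), and 55.2%, 44.2% and 38.6% in HFD cont replicates 1, 2 and 4. The 23 genes of chromosome 11, where the Krtap4 genes lie, took 28% in HFD PMA replicate 1 and 33.6%, 46.8% and 55.3% in the same HFD cont libraries.

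Single genes showed the same order. Between HFD PMA replicate 1 and HFD cont replicate 1, the log2 ratio of CPM over the 53 members with at least 20 counts in the pair had a median of 0.18 and an SD of 0.48, with Krtap17-1 lowest at -1 and Krtap19-9a highest at 1.09. Between HFD PMA replicate 1 and HFD cont replicate 2 it had a median of 1.71 and an SD of 1.44 over 52 members, with Krtap4-9 lowest at -1.08 and Krtap19-1 highest at 5.47. Krtap19-1 was 51.5-fold higher in HFD PMA replicate 1 than in HFD cont replicate 2 (interval 17.2 to 253), whereas Krtap4-9 was 0.47 of its level there (0.361 to 0.608). The medians by class in that pair were 3.01 for 14 glycine-tyrosine members, 1.01 for 13 high-sulfur members and 0.46 for 19 ultra-high-sulfur members. The 7 Krtap19 genes lay between 2.76 and 5.47 and the 8 Krtap4 genes between -1.08 and 0.93, without overlap. Across genes, log2 CPM per kb of these libraries correlated at r = 0.962 for HFD PMA replicate 1 and HFD cont replicate 1, and at 0.673 for HFD PMA replicate 1 and HFD cont replicate 2 (Pearson, 56 genes, which are not independent replicates).

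**Figure D4:**
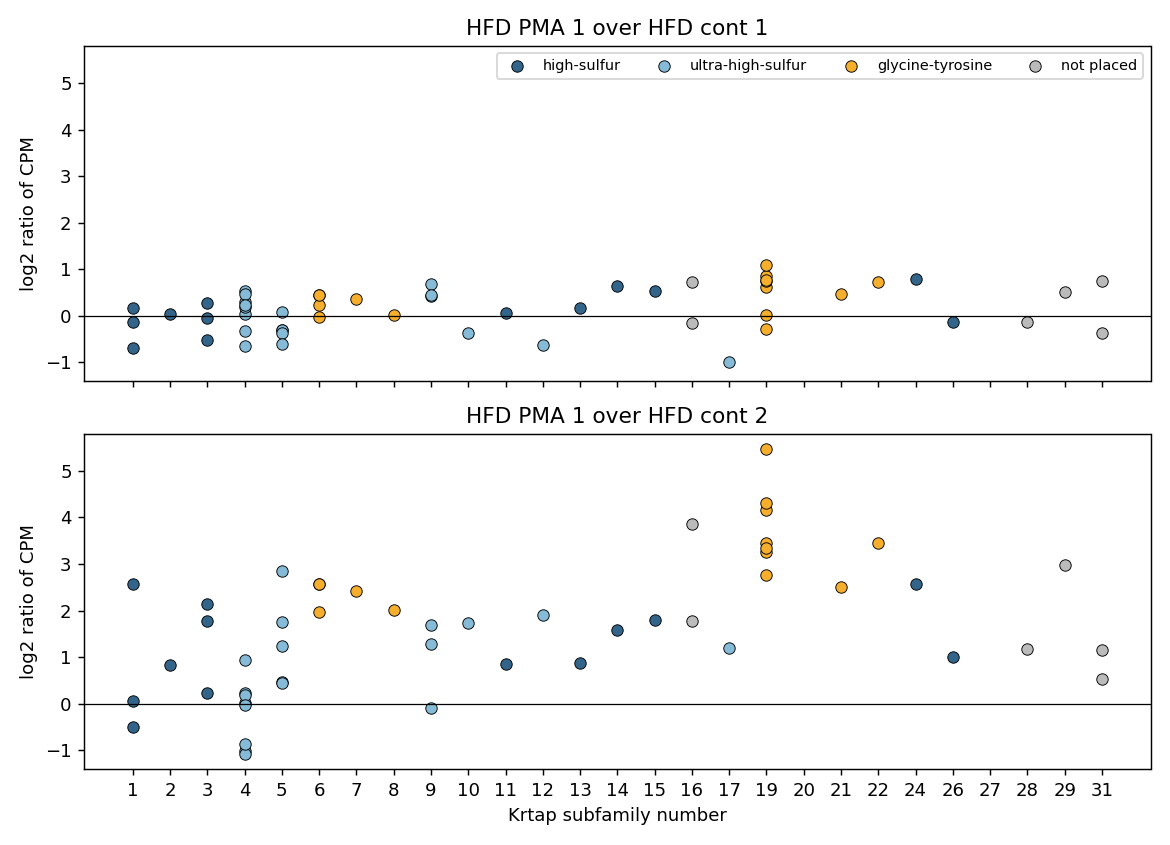
log2 ratio of CPM for each member with at least 20 counts in a pair of libraries, by subfamily number and coloured by protein class; upper panel HFD PMA 1 over HFD cont 1, lower panel HFD PMA 1 over HFD cont 2. The upper ratios stay between -1 and 1.09, and the lower ones reach 5.47 in subfamily 19 while subfamily 4 stays between -1.08 and 0.93.

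Krtap3-2, a high-sulfur member, kept an appreciable level in the libraries where most of the family was near 0, and its highest libraries were also HFD cont replicate 1 and HFD PMA replicate 1. It had 19, 1.11, 2.27 and 7.14 CPM in HFD PMA (198, 14, 29 and 57 counts) and 6.05, 3.60, 1.59 and 2.77 CPM in ND PMA (73, 56, 22 and 27 counts). It had 27.3, 16.4, 9.43 and 14.4 CPM in HFD cont (221, 212, 130 and 133 counts) and 11.8, 16.2, 12 and 13.8 CPM in ND cont (96, 172, 125 and 123 counts). Every ND PMA library was below every ND cont library, and the HFD groups overlapped each other through HFD PMA replicate 1. Krtap3-2 alone took 2.70%, 4.2%, 40% and 13.3% of Krtap counts in HFD cont, against 71.1%, 75.1%, 69.4% and 54.4% in ND cont. It took 1.64%, 3.51%, 10.7% and 32.8% in HFD PMA, and 81.1%, 10.4%, 44.9% and 43.5% in ND PMA. Its neighbours in the cluster were near 0 where Krtap3-2 was not: Krtap3-1 had 26, 7.10, 0.435 and 2.60 CPM in HFD cont, against 0, 0.283, 0.288 and 0.112 CPM in ND cont, and Krtap3-3 had at least 0.725 CPM in HFD cont and at most 0.448 CPM in ND cont. The stretches that Krtap3-2 and Krtap3-3 share were not counted apart.

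Krtap3-2 was lower in ND PMA than in ND cont, at 3.5 ± 1.89 CPM against 13.5 ± 2.05 CPM (SD, n = 4 each), a log2 fold change of -1.94 (SE 0.59, BH-adjusted p = 0.0349, edgeR quasi-likelihood). It was the only member of 33 tested that passed in this comparison, against 12.9% of all genes tested that were called in either direction and 3.99% that were called lower. All 4 ND PMA libraries were of the RHP series and all 4 ND cont libraries of the RHS series. With that series as a covariate the log2 fold change was -0.92 (edgeR adjusted p = 0.79), a value set by 1 library, since within groups the series differs only between HFD cont replicate 1 (27.3 CPM) and the other HFD cont libraries (9.43 to 16.4 CPM). The call was also lost in edgeR without any low-count filter and without ND PMA replicate 2, 3 or 4 or any 1 of the 4 ND cont replicates, while the log2 fold change without any 1 library stayed between -2.34 and -1.70, with adjusted p values of 0.00312 to 0.79 over 26 alternatives. In HFD mice Krtap3-2 had 7.39 ± 8.19 CPM with PMA and 16.9 ± 7.52 CPM without it (SD, n = 4 each), a log2 fold change of -1.20 (SE 0.57) that did not pass (edgeR adjusted p = 0.208). Without HFD PMA replicate 1 it was -2.31 (edgeR adjusted p = 0.00897), and within the RHP libraries alone -0.87 (adjusted p = 0.521). The difference between the PMA effects in HFD and ND mice was 0.75 (SE 0.81, edgeR adjusted p = 0.999). Between diets, the log2 fold change of Krtap3-2 was 1.07 with PMA (SE 0.59, edgeR adjusted p = 0.411) and 0.32 without PMA (SE 0.56, adjusted p = 0.855). Without both HFD libraries numbered 1 these were -0.04 and -0.01.

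Krtap12-1, placed among the ultra-high-sulfur members by its number, was the other member with at least 7 counts in every ND cont library. It had 11.1, 0.556, 0.391 and 0 CPM in HFD PMA (115, 7, 5 and 0 counts) and 0, 1.16, 0.361 and 0.308 CPM in ND PMA (0, 18, 5 and 3 counts). It had 17, 2.93, 1.74 and 0.976 CPM in HFD cont (138, 38, 24 and 9 counts) and 2.59, 0.661, 2.02 and 1.68 CPM in ND cont (21, 7, 21 and 15 counts). All groups overlapped, and none of its comparisons passed. Without Krtap3-2 and Krtap12-1, the other 54 members summed to 1130, 30, 18.5 and 14.6 CPM in HFD PMA and to 1.41, 29.7, 1.59 and 3.28 CPM in ND PMA. They summed to 964, 370, 12.4 and 92.7 CPM in HFD cont and to 2.22, 4.72, 3.26 and 9.86 CPM in ND cont. On that sum all 4 HFD cont libraries lay above all 4 ND cont libraries, and only ND PMA replicate 2 kept the HFD PMA and ND PMA groups from separating. The 2 members left out are those with the most counts in ND cont, so this separation follows in part from the choice. With all 56 members, the diet groups overlapped in both treatments. No test was made of the sum.

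**Figure D5:**
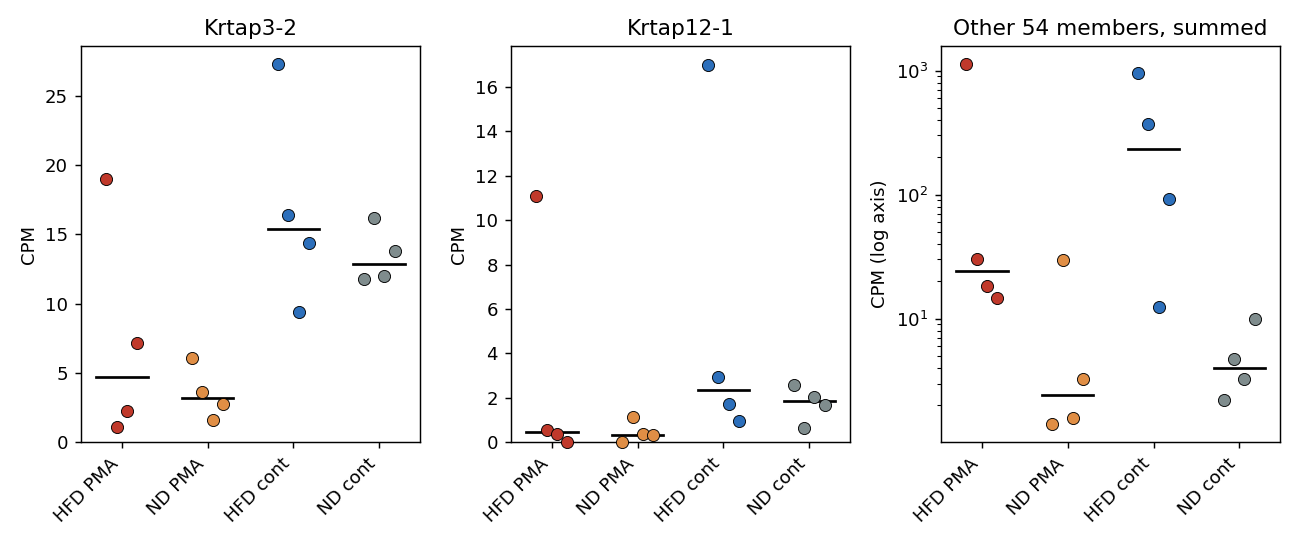
Level in CPM of Krtap3-2 and Krtap12-1, and of the other 54 members summed (log axis), in each library (points) with the group median (line). Krtap3-2 lies between 1.59 and 6.05 CPM in ND PMA and between 11.8 and 16.2 CPM in ND cont, and the other 54 members lie between 2.22 and 9.86 CPM in ND cont.

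For tests, 33 members passed the filter on low counts (0.96 CPM in at least 4 libraries), of 17604 genes tested. All 33 had HFD libraries over that level in both treatments, whereas 11 had an ND PMA library and 5 an ND cont library over it, and 20 had no ND library over it. A member thus mostly passed through the HFD libraries, and counts of calls over the 33 describe these genes and carry no weight for the family. The 4 comparisons of 2 groups share groups with each other, so they are not independent.

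In untreated ears, 9 of the 33 tested members were higher in HFD cont than in ND cont in edgeR's quasi-likelihood test and none was lower, against 2.87% of all genes tested that were called higher. Without overlap between the 4 HFD cont and the 4 ND cont libraries were 13 of the 33, against 7.17% of all genes tested. Some of these gaps were narrow or rest on few counts. The lowest HFD cont and highest ND cont values were 0.798 and 0.784 CPM for Krtap16-1, and 0.217 and 0.0944 CPM for Krtap5-2. The called genes were Krtap17-1, Krtap4-6, Krtap4-9, Krtap4-8, Krtap4-7, Krtap1-4, Krtap5-2, Krtap26-1 and Krtap2-4, with edgeR BH-adjusted p between 0.00941 and 0.0411. Because they had 0 to 5 counts in ND cont in all, fitted fold changes depend on the prior count, and pooled counts are given instead. Krtap17-1 had 236 counts in HFD cont and 1 in ND cont, a ratio of 204 (interval 36.2 to 8080). Krtap26-1 had 402 counts in HFD cont and 5 in ND cont, a ratio of 69.4 (29.5 to 215). Krtap4-8 had 367 counts in HFD cont and 2 in ND cont, a ratio of 158 (43.5 to 1313). Krtap4-9 had 306 counts in HFD cont and 0 in ND cont, which makes it at least 88.0-fold higher when ND cont is set to 3 counts over the group. These ratios rest in large part on 1 library each, and they were recomputed without it, a choice made after seeing the data. Without HFD cont replicate 1 the ratio was 87.8 for Krtap17-1 (15.3 to 3509) and 39.4 for Krtap26-1 (16.6 to 123), and without HFD cont replicate 2 it was 88.6 for Krtap4-8 (24.1 to 739) and at least 35.1 for Krtap4-9. The highest genes of the family were not among those called: Krtap15 had 1044 counts in HFD cont and 6 in ND cont, and Krtap16-1 had 1232 in HFD cont and 9 in ND cont.

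The number of calls depended on single libraries. It was 26 without HFD PMA replicate 1, against 3.24% of all genes tested that were called higher in that fit. It was 3 without HFD cont replicate 1, 2 without HFD cont replicate 2, 4 without HFD cont replicate 4, 1 without ND cont replicate 1, 3 or 4, and 2 without ND cont replicate 2, with 33 or 47 members tested. Over all fits without 1 library, 1.44% to 3.49% of all genes tested were called higher. DESeq2 called 24 of the 40 members it tested, against 4.99% of all genes it tested. Krtap17-1 was called in all 23 alternatives in which it was tested, with a highest edgeR adjusted p of 0.0443. It was not tested without both HFD libraries numbered 1, at the filter of 5 CPM or in the fit of both groups alone. In those settings too few libraries reached the filter level for Krtap17-1, so they say nothing on its call. The other 8 lost their call in 6 to 13 alternatives each, while their fitted log2 fold changes, which depend on the prior count, stayed between 5.11 and 9.86 over all alternatives in which they were tested. Without both HFD libraries numbered 1, 5 of 22 members tested were called, namely Krtap4-7, Krtap4-9, Krtap26-1, Krtap14 and Krtap11-1, against 1.91% of all genes tested; fewer were tested because fewer libraries then reach the filter level. With the RHP and RHS series as a covariate, 4 members were called, against 0.926% of all genes tested; within groups that covariate rests on HFD cont replicate 1 alone. Epidermal keratinocyte markers moved in the same comparison: Krt5, Krt14, Krt1 and Krt10 all passed as higher, with sums of 18488 to 22721 CPM in HFD cont and 11551 to 15900 CPM in ND cont, while 2 of 4 fibroblast markers were lower, with sums of 4406 to 5191 CPM in HFD cont and 6823 to 8609 CPM in ND cont. No marker of either list was at 0, and their part in the Krtap differences was not tested.

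In PMA-treated ears, 0 of the 33 tested members passed between HFD PMA and ND PMA in edgeR, against 2.2% of all genes tested that were called in either direction. At an unadjusted p below 0.05 there were 28 of them, all higher in HFD PMA, against 6.69% of all genes tested that were higher at that level, and the smallest edgeR adjusted p was 0.0682 for Krtap5-2 and Krtap26-1. DESeq2 called 11 of the 43 members it tested, all higher in HFD PMA, against 2.75% of all genes it tested that were called higher. Without overlap between the groups were Krtap26-1 and Krtap21-1, 2 of the 33, against 3.91% of all genes tested. For Krtap21-1 this rests on 1 count (0.0782 CPM) in HFD PMA replicate 3, a level that libraries at 0 counts could also have. All libraries of this comparison were of the RHP series, and the count within that series alone was also 0, of 34 tested.

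Between HFD PMA and HFD cont, 0 of the 33 passed in edgeR, 0 had an unadjusted p below 0.05 and DESeq2 called 0, against 11.9% of all genes tested that edgeR called in either direction. Without HFD PMA replicate 1, edgeR called 9 members lower in HFD PMA than in HFD cont: Krtap1-5, Krtap1-4, Krtap3-2, Krtap3-1, Krtap4-6, Krtap6-5, Krtap7-1, Krtap12-1 and Krtap14, against 3.12% of all genes tested in that fit that were called lower. The interaction of diet and PMA called 0 of the 33 in edgeR and none at an unadjusted p below 0.05, against 0.00568% of all genes tested that edgeR called. DESeq2 called 1 of the 46 members it tested, Krtap1-5, with a positive interaction, against 0.026% of all genes it tested.

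Of the other follicle genes, the lists of which were tested gene by gene in the same fit, 2 of the 15 hair shaft keratins passed as higher in HFD PMA than in ND PMA (Krt32 and Krt84) and 3 as higher in HFD cont than in ND cont (Krt34, Krt82 and Krt84), with none lower. Of all genes tested, 2.2% were called in either direction between HFD PMA and ND PMA. Higher in HFD cont than in ND cont were 2.87% of all genes tested. With PMA, 12.9% were called in either direction in ND mice and 11.9% in HFD mice. Krt84, a keratin of nail and tongue papillae, did not follow the Krtap libraries. It had 21.1, 17.1, 19.9 and 23.7 CPM in HFD PMA, against 4.22, 5.20, 5.63 and 8.21 CPM in ND PMA. It had 22.1, 28.8, 14.2 and 10.2 CPM in HFD cont, against 3.33, 3.21, 1.73 and 4.15 CPM in ND cont. Both HFD groups lay wholly above their ND groups, with log2 fold changes of 1.82 with PMA (SE 0.32, edgeR adjusted p = 0.00605) and 2.60 without (SE 0.34, adjusted p = 0.000206). Of the 10 inner root sheath and companion genes tested, none passed in any of the 5 contrasts in edgeR. Of 10 other hair shaft genes, 3 were higher in HFD cont than in ND cont (Padi3, which citrullinates trichohyalin, Tgm3, a transglutaminase, and Psors1c2), and Tgm3 was also higher in ND PMA than in ND cont. Selenbp1, of the same list, was lower with PMA in both diets.

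Summed, the 15 listed regulators of the follicle did not follow the Krtap libraries, at 1463 CPM in HFD PMA replicate 1 and 1585 CPM in HFD cont replicate 1. Their sums were 1492 to 1569 CPM in ND PMA and 1497 to 1662 CPM in ND cont. Of 13 tested, which include Hoxc13, Foxn1 and Lef1, transcription factors known to act on hair keratin genes, none passed between HFD cont and ND cont, and their median log2 fold change was 0.04, against -0.02 over all genes tested. Hoxc13 had 3.75, 2.70, 0.547 and 1.25 CPM in HFD PMA and 1.90, 0.642, 0.361 and 1.13 CPM in ND PMA. It had 3.95, 3.39, 2.03 and 3.90 CPM in HFD cont and 0.862, 1.42, 0.48 and 2.24 CPM in ND cont, with overlap in both pairs (edgeR adjusted p = 0.506 with PMA and 0.299 without). The highest Hoxc13 values were in HFD PMA replicate 1 and HFD cont replicates 1, 2 and 4, the libraries with the highest Krtap sums. Gata3, a factor of the inner root sheath and epidermis, was lower in HFD PMA than in ND PMA (log2 fold change -0.38, SE 0.09, edgeR adjusted p = 0.0259). Wnt10b was lower in ND PMA than in ND cont, and Msx2 and Dlx3 were lower in HFD PMA than in HFD cont. In these comparisons 12.9% and 11.9% of all genes tested were called in either direction. Shh, a signal of the growing follicle matrix, had 0.74 and 0.694 CPM in HFD cont replicates 1 and 2 and 0 counts in the other 14 libraries. Of 8 pigment genes tested, none passed between diets and Kit alone passed as lower in HFD PMA than in HFD cont, and their sums were 141, 45, 96.4 and 55.1 CPM in HFD PMA, 51.5, 74.9, 68.2 and 80.7 CPM in ND PMA, 148, 78.5, 138 and 118 CPM in HFD cont, and 86.4, 132, 74.9 and 87.6 CPM in ND cont.

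Cell cycle genes moved with PMA nearly as a whole, and few stem cell and papilla genes passed. Of 9 genes of resting follicles and follicle stem cells, Krt15 and Cd34 passed as lower with PMA in both diets, Krt15 with log2 fold changes of -1.54 in HFD mice (SE 0.19, edgeR adjusted p = 3.4e-05) and -1.70 in ND mice (SE 0.19, adjusted p = 6.9e-06). Between diets, 1 of the 9 passed as lower in HFD PMA than in ND PMA and 0 passed without PMA. The 9 genes summed to 1392 to 2378 CPM in HFD PMA and 2045 to 2298 CPM in ND PMA. Without PMA they summed to 3423 to 4379 CPM in HFD cont and 4984 to 6430 CPM in ND cont. Of 8 dermal papilla genes, Vcan rose and Corin and Wif1 fell with PMA in both diets. Between diets, 1 of the 8 passed as lower in HFD mice in each treatment. The 9 listed papilla genes summed to 371 to 458 CPM in HFD PMA and 587 to 611 CPM in ND PMA. Without PMA they summed to 562 to 636 CPM in HFD cont and 691 to 861 CPM in ND cont. Of 15 cell cycle genes, 14 were higher in HFD PMA than in HFD cont and 15 were higher in ND PMA than in ND cont, and 2 were higher in HFD than in ND mice in each treatment. Their sums were 1501, 1702, 1196 and 1037 CPM in HFD PMA, 1024, 944, 1089 and 1178 CPM in ND PMA, 605, 492, 384 and 421 CPM in HFD cont, and 312, 342, 301 and 374 CPM in ND cont. Of all genes tested, 11.9% were called in either direction with PMA in HFD mice and 12.9% in ND mice. Between diets, 2.2% were called in either direction with PMA, and 2.87% were called higher in HFD cont than in ND cont.

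Among genes outside the family with a mean of at least 1 CPM, and with 17 predicted genes and clone names passed over, those whose log2 CPM over the 16 libraries was most like log2 of the summed Krtap level were Krt33a (r = 0.945), Tchh (0.942), Krt40 and Krt35 (0.94 each) and Krt34 (0.935). They were followed by Krt86, Krt87, Prr9, Krt26, Krt81, S100a3, Tchhl1, Krt31, Krt33b and Krt32, the last at 0.907. These are Pearson correlations given as a description, over genes that share libraries, depth and scaling. Of the tested members, Krtap14 was most like the sum (0.977) and Krtap3-2 least (0.629), with Krtap12-1 next to it (0.789).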

How the data were processed

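Per the labels' protocols, RNA of ear tissue came from TRIzol and column clean-up, and 2 ng were made into SMART-Seq2 cDNA and Nextera XT libraries without strand or molecular identifiers, and read in pairs. The authors deposited whole-number counts per gene with a gene length. Per the submitters' processing notes, STAR 2.3, featureCounts 1.5 and GRCm38 were used; the annotation and strand setting are not stated there.

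All 17604 genes kept by filterByExpr (minimum count 10, minimum total 15) were scaled by TMM and fitted in 1 model of 4 group means over 16 libraries with edgeR 4.0.16 (robust quasi-likelihood, R 4.3.3), and p-values were Benjamini-Hochberg adjusted over all of them with a threshold of 0.05. SEs are the absolute log2 fold change over the square root of F. CPM use TMM-scaled totals; CPM per kb use the deposited length. Log2 CPM use a prior count of 2. DESeq2 1.42.0 and other settings were alternatives. Replicates are libraries of separate mice, per the series' design text. Libraries of a group differed by more than sampling noise (lowest chi-square per degree of freedom 10.0). The fit was tested on simulated data.

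The members and lists were chosen with earlier results of these data known. Named members were the highest of each subfamily with at least 10 counts in a library, the 10 highest per kb and those called with a mean CPM of at least 1; members and list genes given beyond that, such as Krtap3-3, Krtap19-1, Hoxc13 and Shh, were chosen after their values were seen. Protein classes were placed by subfamily number from general knowledge and were not checked against cysteine content. Positions are from GENCODE M21 and upstream windows from RefSeq on GRCm38.p6.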

Additional observations from a re-analysis of the deposited data

Results flagged for a closer look

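Within groups of 4, a sample was singled out when its gap to the nearest other sample exceeded Dixon's 95% critical value of the group's range. Chance does this in about 1 in 20 groups of normally distributed values, a rate that does not hold for rows of mostly 0 counts. For the summed Krtap CPM this gap was 0.991 of the range for HFD PMA replicate 1 and 0.873 for ND PMA replicate 2. For Krtap12-1 it was 0.95 for HFD PMA replicate 1 and 0.878 for HFD cont replicate 1. Of the other named members, HFD PMA replicate 1 was singled out for 29, ND PMA replicate 2 for 20 and HFD cont replicate 1 for 4, always on the CPM scale. In ND PMA replicates 1, 3 and 4, 50, 46 and 47 members had no count, so for many members a few counts in replicate 2 were enough to single it out. In ND cont, where most members rest on 0 to a few counts, replicates 1, 2, 3 and 4 were singled out for 1, 4, 3 and 6 members. Members of 1 library are not independent, so these numbers describe libraries.

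Krtap28-10, which the table types as lincRNA and which therefore is no member, had a median of 2.57 CPM in HFD cont. It had 3.65, 0.0794, 0.156 and 0 CPM in HFD PMA and 0, 0.385, 0 and 0 CPM in ND PMA. It had 5.18, 2.01, 0.508 and 3.14 CPM in HFD cont and 0 counts in all 4 ND cont libraries.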

How the results depend on the processing

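For HFD cont against ND cont, the 9 member calls became 2 without a low-count filter, 0 of 3 tested at a filter of 5 CPM in 4 libraries, 14 without robust fitting, 4 with the library series as a covariate, 1 of 5 tested in a fit of both groups alone, 24 of 40 tested in DESeq2 (4.99% of all genes called higher), 5 without both HFD libraries numbered 1 (1.91% of all genes; an alternative chosen after seeing the data), and between 1 and 26 when 1 library was left out (1.44% to 3.49% of all genes). Over the other settings named, the share of all genes called higher was 0.926% to 4.25%. For HFD PMA against ND PMA, the count of 0 became 1 without robust fitting, 11 in DESeq2 and between 0 and 1 with 1 library left out. Of all genes tested, 2.16%, 5.23% and 0.641% to 2.41% were called in either direction in these fits. For ND PMA against ND cont, the 1 call became 0 without a filter and with the series covariate, 3 in DESeq2, and between 0 and 1 with 1 library left out. About 6%, 3%, 16% and 10% to 12% of all genes tested were called in either direction in these fits, in that order. For HFD PMA against HFD cont, the 0 became 1 without both HFD libraries numbered 1 and between 0 and 9 with 1 left out. The shares of all genes called in either direction were 7.18% and 6.66% to 13.7%. For the interaction the count of 0 became 1 in DESeq2, where 0.125% of all genes were called in either direction. With 1 library left out of a group, the filter requires fewer libraries and tests 47 members in place of 33 in many of these runs. The cause of these shifts was not tested.

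The fitted log2 fold change of Krtap3-2 changed sign in 5 cases, none of them called. Without HFD PMA replicate 1 it was -0.00 for HFD PMA against ND PMA, which ranged up to 1.46 with another library left out, and -0.34 for the interaction, which ranged from -0.34 to 1.14 with 1 library left out. Without both HFD libraries numbered 1 it was -0.04, -0.01 and -0.04 for HFD PMA against ND PMA, HFD cont against ND cont and the interaction. Scaling by relative log expression or upper quartiles left all 5 member counts as they were.

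Same-numbered libraries of HFD PMA and HFD cont correlated at 0.202, 0.0138, 0.116 and 0.0791 in their deviations from the group means. Libraries of these groups with different numbers correlated at -0.203 to 0.0884. These correlations do not settle if the numbers are pairs. The labels' numbers were not taken as pairs because the design text gives separate mice and no block. With the replicate block, the member calls were 16 for HFD cont against ND cont and 2 for HFD PMA against ND PMA (Krtap26-1 and Krtap21-1), and the other 3 counts did not change. Of all genes tested with the block, 3.8% and 2.03% were called in either direction in these 2 comparisons.

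Counts limit the comparison of ND PMA with ND cont: the depths of the ND and HFD libraries overlapped, but 18 members had 0 counts over the 4 ND PMA libraries and 15 over the 4 ND cont libraries, with 11 and 19 more at 1 to 3 counts, and for such members a difference was hard to detect.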
